A study of Mus musculus with 4 samples.

Results

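Immunoglobulin heavy chain variable (Ighv) segments were described in RNA from lung tissue around B16-F10 metastases. The Ighv segments were taken from the deposited FPKM values (fragment counts corrected for transcript length and library size) as every symbol made of Ighv and a number that reached an FPKM of 1 in at least 1 library. This rule gave 81 segments of the 115 Ighv segments and the 21499 genes in the files. The FPKM values of these same libraries chose the 81 segments, so counts over them are descriptions. Of the 81, 59 reached the minimum in both genotypes, 20 in WT libraries alone and 2 in Lf-/- libraries alone. For each of the 20, the higher WT value had to exceed both Lf-/- values. The member just above the minimum was Ighv3-4, with at most 1.23 FPKM, and the segment just below it was Ighv5-15, with at most 0.858 FPKM.

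The libraries came from 2 Lf-/- mice, which lack lactoferrin (the product of Ltf, a protein of milk, mucosal secretions and neutrophil granules that binds iron), and 2 WT mice, 1 library a mouse. Per the labels all were C57B/L6 males, 8 weeks old when they received 200000 B16-F10 melanoma cells through the tail vein. They were killed 3 weeks later, and the lung around the colonies was taken without the tumour. The study used 10 mice per genotype. The Lf-/- allele is named by its genotype alone, and neither its construction nor its breeding is described in the labels. The question is how the lung around the metastases differs without lactoferrin.

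Each B cell builds its heavy chain gene by joining a variable, a diversity and a joining segment from the Igh locus, and the joined variable segment is transcribed into the same RNA as the constant region downstream. RNA from a lung therefore shows which variable segments its B cells and antibody-secreting plasma cells use. A clone that has expanded and secretes antibody raises its own segment, because plasma cells hold far more heavy chain RNA than resting B cells. Segments are named by subgroup, the number after Ighv, and the large Ighv1 subgroup is also known as the J558 family. In bulk tissue, fewer cells of a type and less RNA per cell cannot be told apart.

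All 81 segments lie on chromosome 12, minus strand, in GRCm38, and GENCODE annotates each as a functional variable gene. The exon that codes for the variable region was 305 bases long in all 42 members of Ighv1 and between 301 and 351 bases over all 81 members. The V exons of Ighv1 members were 75.7% to 98.7% identical to each other, with a median of 85.6%. Of the 81 members, 50 had an annotated copy that matched 95% or more of the bases along 50% or more of the transcript, so their separate levels are uncertain, and 31 had none. The V exons below show how closely the abundant segments resemble each other, which bears on how far reads can be told apart. Ighv1-26 led both Lf-/- libraries and WT library 1, and Ighv1-18 was the second segment of WT library 2. They are shown with Ighv1-22, another relative that was high in WT library 2. Capitals in Ighv1-26 and Ighv1-22 mark bases that differ from Ighv1-18, and capitals in Ighv1-18 mark bases at which either of them differs. The lines give the first 300 bases of each exon from the GENCODE vM21 transcripts, 5′ to 3′ on the coding strand, and hold every differing base of the exon. Ighv1-18 is the minus strand of chr12:114682637-114682936, Ighv1-26 of chr12:114788377-114788676 and Ighv1-22 of chr12:114746278-114746577.
Ighv1-18: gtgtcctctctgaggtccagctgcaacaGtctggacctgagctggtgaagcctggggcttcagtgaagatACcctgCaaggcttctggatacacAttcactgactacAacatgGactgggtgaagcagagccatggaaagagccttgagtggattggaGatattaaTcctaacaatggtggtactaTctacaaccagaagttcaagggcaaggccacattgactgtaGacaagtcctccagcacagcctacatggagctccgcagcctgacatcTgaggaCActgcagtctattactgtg
Ighv1-26: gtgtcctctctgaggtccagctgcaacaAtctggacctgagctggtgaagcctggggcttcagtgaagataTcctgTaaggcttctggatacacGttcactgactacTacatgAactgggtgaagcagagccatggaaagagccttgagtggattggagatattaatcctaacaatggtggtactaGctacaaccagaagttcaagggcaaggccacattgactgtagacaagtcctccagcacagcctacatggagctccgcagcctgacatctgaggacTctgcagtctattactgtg
Ighv1-22: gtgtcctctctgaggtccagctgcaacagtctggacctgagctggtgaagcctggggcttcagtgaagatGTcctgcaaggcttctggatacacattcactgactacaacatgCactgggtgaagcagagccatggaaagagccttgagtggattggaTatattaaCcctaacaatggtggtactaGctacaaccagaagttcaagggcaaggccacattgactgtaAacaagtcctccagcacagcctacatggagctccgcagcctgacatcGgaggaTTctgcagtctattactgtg

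Ighv1-26 differed from Ighv1-18 at 8 of 305 bases, and Ighv1-22 differed from it at 10. The leading segment of WT library 2, Ighv1-54, stood further from its relatives. Its closest annotated relative by alignment was Ighv1-63, which differed at 22 of 305 bases, and it had no copy at the 95% identity used here. Capitals mark the bases at which Ighv1-54 (minus strand of chr12:115193680-115193979) and Ighv1-63 (minus strand of chr12:115495630-115495929) differ.
Ighv1-54: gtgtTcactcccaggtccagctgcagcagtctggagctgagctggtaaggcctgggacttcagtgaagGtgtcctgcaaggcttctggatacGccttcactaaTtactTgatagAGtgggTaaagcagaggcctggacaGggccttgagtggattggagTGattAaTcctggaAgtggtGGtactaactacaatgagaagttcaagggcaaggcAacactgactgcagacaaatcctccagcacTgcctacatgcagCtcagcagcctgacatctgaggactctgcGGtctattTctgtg
Ighv1-63: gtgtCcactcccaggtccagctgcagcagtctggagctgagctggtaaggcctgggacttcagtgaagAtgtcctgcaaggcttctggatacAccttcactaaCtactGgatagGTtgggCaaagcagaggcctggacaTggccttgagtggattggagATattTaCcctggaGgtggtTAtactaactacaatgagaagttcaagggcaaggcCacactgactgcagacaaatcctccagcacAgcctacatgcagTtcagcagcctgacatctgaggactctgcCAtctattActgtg

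A conserved cysteine lies near the 3′ end of a V exon, and the letters TANTACTGT, which end with its codon, were searched on the coding strand alone. They were in the V exon of 61 of 81 members (75.3%) and of 81 of the 113 listed segments with a unique position (71.7%). In Ighv1-18 the match began 15 bases before the end of the exon.

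The libraries were first checked as a whole. Summed FPKM was 388800 and 317980 in the Lf-/- libraries and 400150 and 375540 in the WT libraries, and read totals are unknown because FPKM does not give them. Ltf, the targeted gene, had 0.104 and 0.533 FPKM in Lf-/- mice 1 and 2, against 79.2 and 7.32 FPKM in WT mice 1 and 2. Lung markers were present, with summed type 2 cell markers between 19935 and 25528 FPKM in the Lf-/- libraries and between 25489 and 25974 FPKM in the WT libraries. Of these 5 markers, 4 lay below both WT libraries, against 17.8% of all genes tested. Among 5 type 1 cell and 5 endothelial markers, 2 and 3 lay above both WT libraries, against 18.1% of all genes tested. The part of these cells in the Ighv values was not tested. The Y-linked gene Ddx3y had 14.5 and 12.1 FPKM in the Lf-/- mice and was listed at 0 in both WT mice, although the labels call all 4 mice male. Since both WT libraries go against that label, the effect of genotype and that of carrying Y-linked transcripts cannot be told apart in any value below, and no comparison without them is possible. The 5 melanocyte markers summed to 6.30 and 2.29 FPKM in the Lf-/- libraries and to 4.82 and 98.96 FPKM in the WT libraries, and Tyrp1 and Tyr, pigment enzymes of melanocytes, were listed at 0 in Lf-/- library 2 and WT library 1. WT library 2 thus held the most melanocyte RNA and also the highest Ighv sum, and the part of the one in the other was not tested. Alveolar macrophage markers summed to 380 and 55.7 FPKM in the Lf-/- libraries and to 515.5 and 595 FPKM in the WT libraries. Of these 5 markers, 3 lay below both WT libraries, against 17.8% of all genes tested, and their part in the Ighv values was not tested.

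Ighv transcripts were lower in both Lf-/- lungs than in both WT lungs. The 81 segments summed to 203 and 169 FPKM in Lf-/- mice 1 and 2, against 574 and 2104 FPKM in WT mice 1 and 2. The groups did not overlap, and the WT mice differed from each other more than WT mouse 1 differed from the Lf-/- mice. The mean was 186 ± 23.8 FPKM in Lf-/- mice and 1339 ± 1082 FPKM in WT mice (SD, n = 2 each), a ratio of 0.139 that was 0.325 without WT mouse 2 and 0.0885 without WT mouse 1. With 2 mice in each genotype, the smallest two-sided p of an exact permutation is 0.33, so sums have no p here. Ighv made up 0.0522% and 0.0533% of all FPKM in the Lf-/- libraries and 0.143% and 0.560% in the WT libraries.

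**Figure D1:**
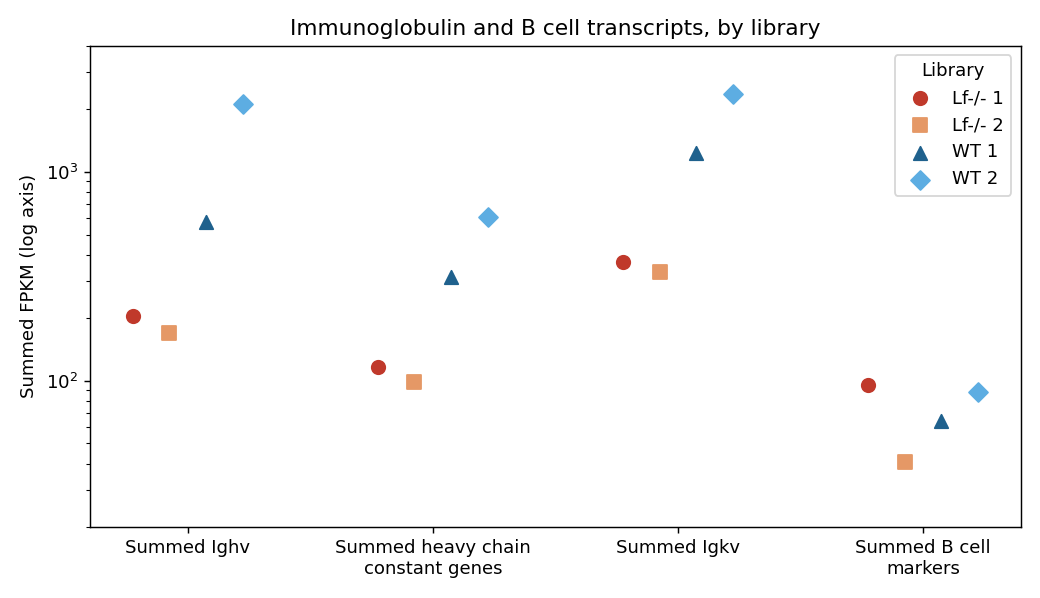
Summed FPKM (log axis) of the 81 Ighv segments, 8 heavy chain constant genes, 82 Igkv segments and 11 B cell markers, with 1 point per library. Both Lf-/- libraries lie below both WT libraries for the first 3 quantities and span the WT libraries for B cell markers.

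Segment by segment, the order of the libraries pointed the same way. Both Lf-/- libraries lay below both WT libraries for 39 of 81 segments (48.1%), against 17.8% of all 12994 genes tested. None lay above both WT libraries, against 18.1% of all genes. Of the 39, 26 had reached the minimum in both genotypes and 13 in WT alone. Over all 115 listed segments, whatever their level, the same counts were 41 and 0. With near-identical copies left out, 13 of 31 segments lay below both WT libraries. Both this order and an at least 2-fold lower mean were found for 37 of the 81 segments (45.7%), against 1.92% of all genes.

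In limma's moderated test across all genes, no Ighv segment passed a Benjamini-Hochberg adjusted p of 0.05, against 0.0154% of all genes. The genes that passed were the Y-linked genes Ddx3y and Eif2s3y, both higher in Lf-/- mice. At an unadjusted p under 0.05, 25 segments were lower (30.9%, against 2.45% of all genes) and 0 were higher (against 2.49%). The log2 difference in FPKM + 1 was below 0 for 75 of 81 segments (92.6%, against 51.7% of all genes) and above 0 for 6. Its median was -1.18, against -0.01 over all genes tested. The scale log2(FPKM + 1) understates differences of low segments.

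Ighv1-26 had the smallest p of the 81. It measured 14.9 and 14.3 FPKM in Lf-/- mice, against 66.4 and 87.2 FPKM in WT mice. Its level was steady within each genotype and the groups did not overlap, with means of 14.6 ± 0.40 FPKM in Lf-/- and 76.8 ± 14.7 FPKM in WT (SD, n = 2 each). The log2 difference was -2.31 (SE 0.17), with an adjusted p of 0.205 by limma. It lay between -2.50 and -2.11 when each library was left out in turn. Ighv1-26 was also the single segment among the 10 highest of every library. It has 5 near-identical annotated copies, Ighv1-18 among them, so its separate level is uncertain.

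The other segments of smallest p were likewise lower in both Lf-/- mice, at lower levels. Ighv7-3 had 1.88 and 1.51 FPKM in Lf-/- mice, against 28.1 and 12.6 FPKM in WT mice (log2 difference -2.88, SE 0.38). Ighv1-53 had 7.73 and 5.79 FPKM in Lf-/- mice, against 48.0 and 23.7 FPKM in WT mice (log2 difference -2.18, SE 0.36). In both segments WT mouse 1 held the higher level of the WT mice, unlike the summed level, which was higher in WT mouse 2. Ighv2-9 had 4.49 and 2.67 FPKM in Lf-/- mice, against 11.6 and 9.62 FPKM in WT mice. Ighv6-3 had 5.59 and 5.42 FPKM in Lf-/- mice, against 9.61 and 11.1 FPKM in WT mice, the smallest difference of this group at -0.80 (SE 0.12). Near the minimum, Ighv5-6 had 1.61 and 1.54 FPKM in Lf-/- mice, against 4.01 and 4.84 FPKM in WT mice. Ighv1-7 had 1.005 and 0.380 FPKM in Lf-/- mice, against 4.23 and 3.87 FPKM in WT mice. The adjusted p of these segments by limma ran from 0.636 to 0.851.

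B-1 cells are innate-like B cells of body cavities. Ighv11-2, used by B-1 cells that bind phosphatidylcholine, had 0.174 and 0.392 FPKM in Lf-/- mice, against 2.57 and 3.61 FPKM in WT mice (log2 difference -1.67, SE 0.22, adjusted p = 0.636 by limma). Ighv12-3, which shares that specificity and was chosen with its values in view, had 0.329 and 0 FPKM in Lf-/- mice, against 6.57 and 0.610 FPKM in WT mice. Both segments had Lf-/- values under those of both WT mice, and both reached the minimum of 1 through WT alone. Ighv7-1, a segment of phosphorylcholine antibodies also chosen with its values in view, had 1.85 and 0.249 FPKM in Lf-/- mice, against 1.03 and 1.45 FPKM in WT mice, so the groups overlapped.

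The WT mice shared few of their abundant segments, with Ighv1-26 and Ighv9-3 alone among the 10 highest of each. Ighv1-54 had 6.81 and 1.10 FPKM in Lf-/- mice, against 3.18 and 537 FPKM in WT mice 1 and 2. Ighv1-18 had 8.90 and 6.63 FPKM in Lf-/- mice, against 7.96 and 420.04 FPKM in WT mice 1 and 2. For both segments WT mouse 1 lay within the range of the Lf-/- mice and WT mouse 2 stood alone. Their log2 differences were -3.55 (SE 2.39) and -2.82 (SE 1.84), with an adjusted p of 0.893 by limma for each, and were -0.05 and -0.04 without WT mouse 2. WT mouse 2 exceeded WT mouse 1 by 169-fold for Ighv1-54 and by 52.8-fold for Ighv1-18.

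**Figure D2:**
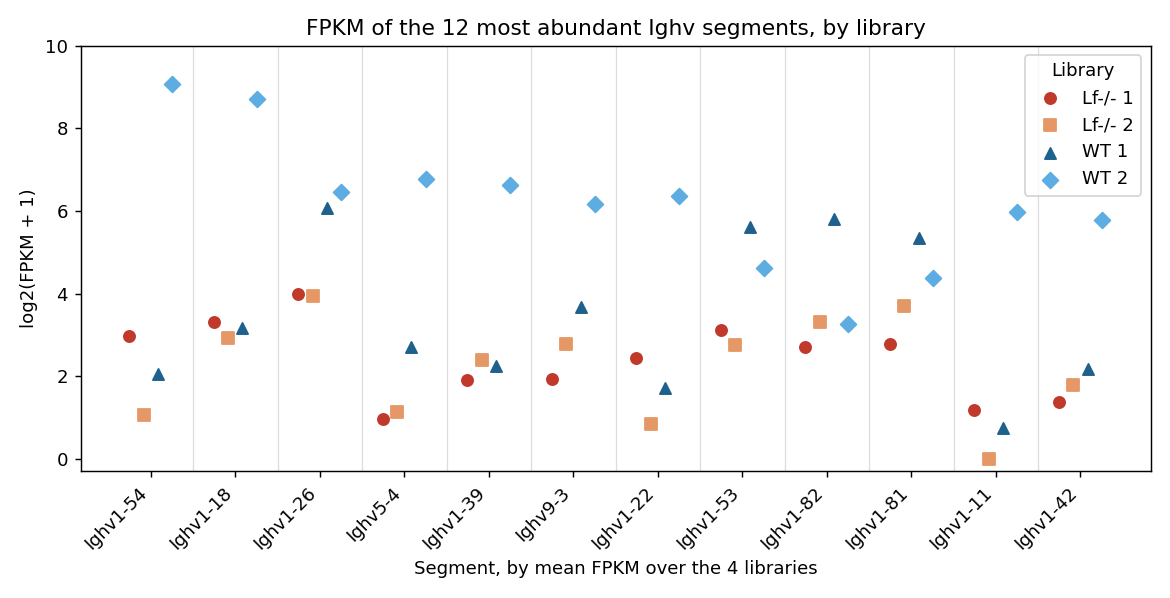
FPKM on the log2(FPKM + 1) scale of the 12 segments with the highest mean over the 4 libraries, with 1 point per library. Ighv1-54 and Ighv1-18 reach 537 and 420.04 FPKM in WT mouse 2 and stay under 10 FPKM in the other libraries, whereas Ighv1-26 is high in both WT mice.

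Several lower segments were likewise highest in WT mouse 2. Ighv5-4 had 0.952 and 1.197 FPKM in Lf-/- mice, against 5.57 and 108 FPKM in WT mice 1 and 2. Ighv1-39 had 2.74 and 4.23 FPKM in Lf-/- mice, against 3.77 and 97.9 FPKM in WT mice. Ighv1-22 had 4.44 and 0.792 FPKM in Lf-/- mice, against 2.27 and 81.9 FPKM in WT mice. WT mouse 2 alone was high in each, while Ighv5-4 was still lowest in the Lf-/- mice. Ighv9-3 had 2.83 and 5.88 FPKM in Lf-/- mice, against 11.7 and 71.4 FPKM in WT mice, and was also among the 10 highest segments of WT mouse 1. Ighv1-11 had 1.25 and 0 FPKM in Lf-/- mice, against 0.678 and 62.1 FPKM in WT mice. Ighv1-42 had 1.59 and 2.44 FPKM in Lf-/- mice, against 3.49 and 54.4 FPKM in WT mice. Of these, Ighv1-22 has 96.7% V exon identity with Ighv1-18, whereas Ighv1-39 and Ighv1-42 have 92.5% and Ighv1-11 has 79.7%. Over the 81 segments, WT mouse 2 was at least 10-fold above WT mouse 1 for 18.

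Behind Ighv1-26, which led WT mouse 1, the abundant segments of that mouse were mostly others than in WT mouse 2. Ighv1-82 had 5.58 and 8.98 FPKM in Lf-/- mice, against 54.6 and 8.66 FPKM in WT mice 1 and 2. Ighv1-81 had 5.89 and 11.9 FPKM in Lf-/- mice, against 39.6 and 19.9 FPKM in WT mice. Ighv1-82 overlapped between genotypes and Ighv1-81 did not. Ighv1-76, chosen with its values in view, had 2.21 and 1.73 FPKM in Lf-/- mice, against 51.8 and 6.13 FPKM in WT mice. Of the 81 segments, 8 were at least 5-fold higher in WT mouse 1 than in WT mouse 2. Among segments with at least 1 FPKM in both mice of a genotype, the higher mouse exceeded the lower by at least 5-fold in 3 of 36 segments in Lf-/- mice and in 22 of 54 segments in WT mice. The median of that ratio was 1.58 in Lf-/- and 3.24 in WT. Lower Lf-/- levels leave less room for a 5-fold gap above 1 FPKM, so this contrast is partly set by the minimum. Without that minimum, 31 of the 81 segments were counted as at least 5-fold apart in Lf-/- mice. That count includes segments with no signal in either Lf-/- mouse, such as Ighv2-4. In WT mice, 34 of the 81 were at least 5-fold higher in mouse 2 and 8 in mouse 1.

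The 6 segments with a difference above 0 were low and overlapped between genotypes. Ighv5-9-1 had 2.96 and 0.912 FPKM in Lf-/- mice, against 0.837 and 1.43 FPKM in WT mice, with a log2 difference of 0.38 (SE 0.40). Ighv2-3 had 1.97 and 2.48 FPKM in Lf-/- mice, against 0 and 3.99 FPKM in WT mice. Ighv1-85 had 0.704 and 6.07 FPKM in Lf-/- mice, against 0.778 and 4.86 FPKM in WT mice. In each of these, a single mouse set the mean of a genotype or of both. Ighv1-31 had 0 and 1.61 FPKM in Lf-/- mice, against 0 and 0.324 FPKM in WT mice. Ighv1-43 had 1.42 and 0 FPKM in Lf-/- mice, against 0.392 and 0 FPKM in WT mice. Ighv1-36 had 1.72 and 0.263 FPKM in Lf-/- mice, against 0.382 and 1.27 FPKM in WT mice. The adjusted p of all 6 lay between 0.914 and 0.991 by limma, and each changed sign when some single library was left out.

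Dominance, the share of the summed Ighv FPKM held by the leading segments, was lower in the Lf-/- libraries. The leading segment held 7.31% and 8.43% in Lf-/- mice, and it was Ighv1-26 in both. It held 11.6% in WT mouse 1, again Ighv1-26, and 25.5% in WT mouse 2, where it was Ighv1-54. Together with Ighv1-18, which held 19.96%, Ighv1-54 took 45.5% of the Ighv FPKM of WT mouse 2, whereas the leading pair took 11.9% and 15.5% in Lf-/- mice and 21.1% in WT mouse 1. The 10 highest segments held 40.3% and 46.0% in Lf-/- mice, against 60.2% and 74.2% in WT mice. It took 14 and 12 segments to reach 50% of the Ighv FPKM in Lf-/- mice, against 6 and 3 segments in WT mice.

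**Figure D3:**
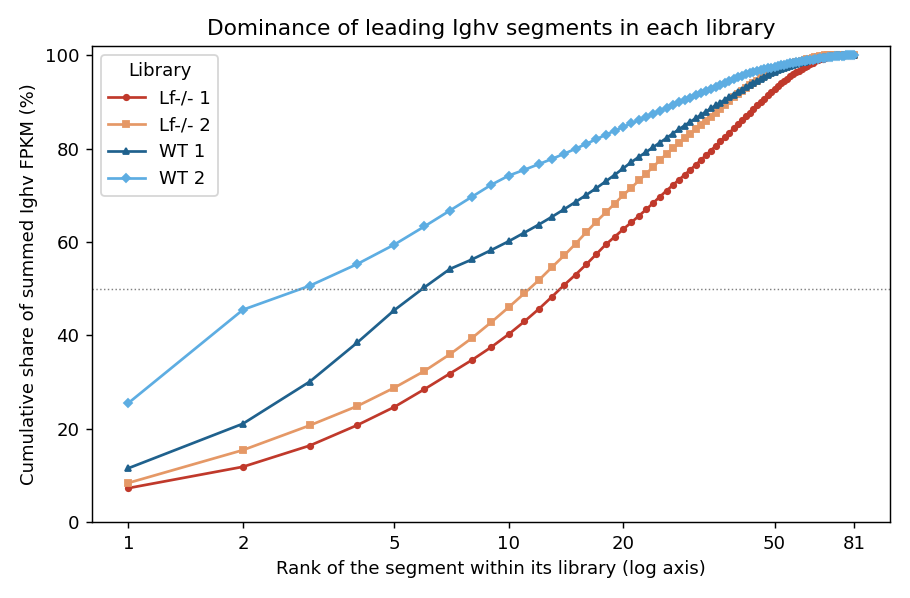
Cumulative share (%) of the summed Ighv FPKM against the rank of the segment within its library (log axis), with 1 line per library over 81 segments. The WT lines climb faster, and the dotted line at 50% is reached after 14 and 12 segments in Lf-/- mice and after 6 and 3 segments in WT mice.

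The effective number of segments gave the same order. It is the inverse Simpson index, the number of equally abundant segments that would give the same sum of squared shares. It was 37.7 and 30.5 in Lf-/- mice, against 19.4 and 8.48 in WT mice. The mean was 34.1 ± 5.11 in Lf-/- and 13.9 ± 7.69 in WT (SD, n = 2 each), and the groups did not overlap. Without Ighv1-54 and Ighv1-18 it was 36.3 and 29.2 in Lf-/- mice, against 18.7 and 23.0 in WT mice. The order of the genotypes held, but WT mouse 2 then lay above WT mouse 1. When near-identical segments were summed, the 81 members formed 53 groups, 14 of them with several segments. The effective number of groups was 17.3 and 18.8 in Lf-/- mice, against 13.98 and 6.26 in WT mice. The group of Ighv1-18, Ighv1-19, Ighv1-22, Ighv1-26 and Ighv1-34 then led every library, and the leading share overlapped between genotypes, with 17.1% and 13.7% of Ighv FPKM in Lf-/- mice and 15.6% and 28.9% in WT mice. Its summed level was 34.8 and 23.2 FPKM in Lf-/- mice, against 89.2 and 608 FPKM in WT mice.

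Ighv1 held the largest share of any subgroup in all 4 libraries, and the order of the other subgroups varied between libraries. Ighv1, with 42 of the 81 members (51.9%), held 63.0% and 71.6% of Ighv FPKM in Lf-/- mice, against 66.7% and 78.9% in WT mice. These shares overlapped, and the difference changed sign without WT mouse 2. In level, Ighv1 summed to 128 and 121 FPKM in Lf-/- mice, against 383 and 1660 FPKM in WT mice. Ighv5 summed to 15.7 and 8.18 FPKM in Lf-/- mice, against 47.1 and 128 FPKM in WT mice. Ighv2, the Q52 family, summed to 13.6 and 8.64 FPKM in Lf-/- mice, against 19.8 and 46.6 FPKM in WT mice. Of the 14 subgroups, 12 had both Lf-/- sums below both WT sums, and Ighv4 and Ighv13, with 1 member each, overlapped. Ighv11 and Ighv12, counted among the 12, also had 1 member each. That member reached the minimum in WT alone, so its higher WT value had to exceed both Lf-/- values. The order of libraries was below both WT mice for 17 of 42 Ighv1 members and for 22 of 39 members of other subgroups, against 17.8% of all genes tested. Of all members in this order, 13 had reached the minimum in WT alone, most of them outside Ighv1. The contrast between Ighv1 and the other subgroups is therefore partly set by the minimum.

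As shares, 3 of the 14 subgroups were higher in both Lf-/- libraries and the other 11 overlapped. In level, 18.1% of all genes tested lay above both WT libraries, so a count of 3 of 14 is near that share. Subgroup shares were not recomputed without Ighv1-54 and Ighv1-18, which held 45.5% of Ighv FPKM in WT mouse 2. Ighv2 held 6.71% and 5.10% of Ighv FPKM in Lf-/- mice, against 3.45% and 2.21% in WT mice. Ighv6 held 3.53% and 4.77% in Lf-/- mice, against 2.47% and 1.22% in WT mice. Ighv8 held 6.71% and 3.11% in Lf-/- mice, against 2.63% and 2.83% in WT mice. All 3 were lower in level in both Lf-/- mice, relative to an Ighv sum that was lower still.

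**Figure D4:**
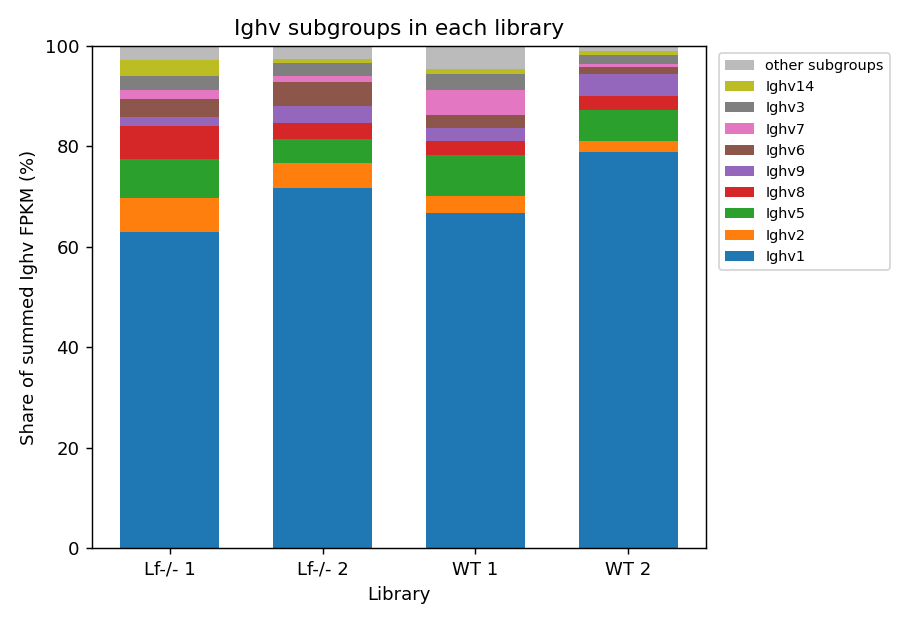
Share (%) of the summed Ighv FPKM held by each subgroup, stacked to 100% in each library. Ighv1 takes 63.0% and 71.6% in the Lf-/- libraries and 66.7% and 78.9% in the WT libraries.

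Along the locus, segments from both ends were used in every library. Members lay between 158 kb (Ighv2-2) and 2570 kb (Ighv1-85) from Ighj1, the joining segment nearest to the variable segments. With the span of listed segments cut into 3 stretches of equal length, the 31 members nearest to Ighj1 held 25.5% and 20.1% of Ighv FPKM in Lf-/- mice, against 26.2% and 16.9% in WT mice. The 27 members of the middle stretch held 42.2% and 41.3% in Lf-/- mice, against 35.9% and 47.5% in WT mice. The 23 members of the distal stretch held 32.3% and 38.6% in Lf-/- mice, against 37.9% and 35.7% in WT mice. The genotypes overlapped in all 3 stretches. Without Ighv1-54 and Ighv1-18, the distal share was 31.4% and 39.8% in Lf-/- mice, against 38.1% and 18.6% in WT mice, and the share nearest to Ighj1 was 27.6% and 21.0% in Lf-/- mice, against 26.7% and 30.9% in WT mice.

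**Figure D5:**
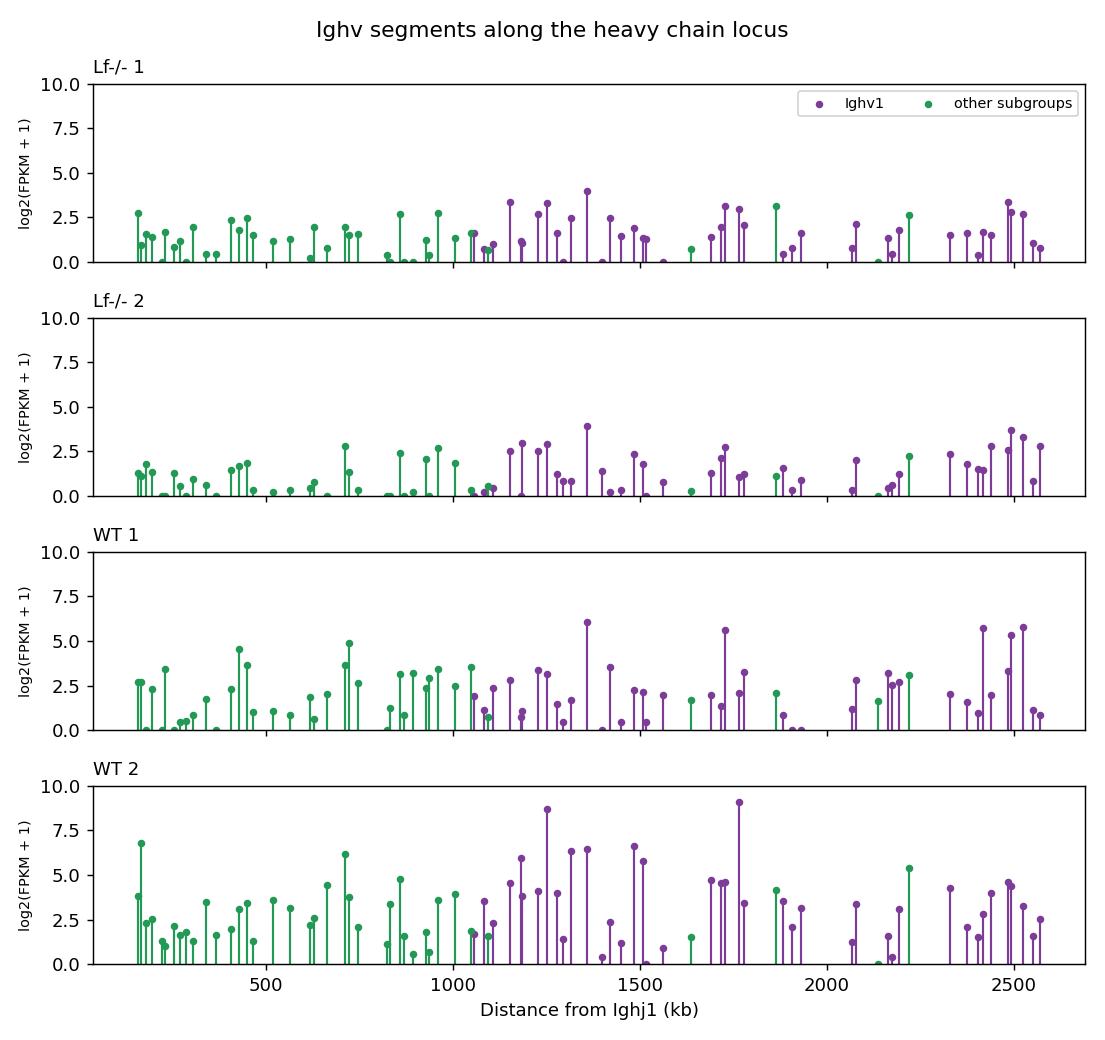
log2(FPKM + 1) of the 81 segments against their distance from Ighj1 (kb), with 1 panel per library and colour for Ighv1 or other subgroups. Ighv1 members begin near 1057 kb, and the 2 tallest lines of WT mouse 2 are Ighv1-18 and Ighv1-54.

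Heavy chain constant genes ran beside the variable segments. The 8 constant genes summed to 116 and 99.0 FPKM in Lf-/- mice, against 315 and 606 FPKM in WT mice. The summed Ighv level was 1.75 and 1.71 times this sum in Lf-/- mice, against 1.82 and 3.47 times in WT mice, so WT mouse 2 alone stood apart. Ighm, the constant region of IgM, had 69.7 and 36.6 FPKM in Lf-/- mice, against 224 and 266 FPKM in WT mice. Igha, the constant region of IgA, had 17.4 and 42.8 FPKM in Lf-/- mice, against 59.8 and 259 FPKM in WT mice. All 3 were lower in both Lf-/- mice: Ighg2b, an IgG constant region, had 1.25 and 2.06 FPKM in Lf-/- mice, against 5.79 and 4.40 FPKM in WT mice. Their adjusted p by limma ran from 0.676 to 0.893. Ighg2c, another IgG constant region, and Ighd were chosen with their values in view. Ighg2c had 0.770 and 3.84 FPKM in Lf-/- mice, against 4.12 and 55.8 FPKM in WT mice. Igha and Ighg2c were highest in the mouse in which Ighv1-54 and Ighv1-18 were high, although bulk RNA does not tie a variable segment to a constant region. Ighd, the constant region of IgD on mature naive B cells, overlapped between genotypes with 26.6 and 10.9 FPKM in Lf-/- mice, against 14.3 and 18.5 FPKM in WT mice. The 4 joining segments Ighj1 to Ighj4 were listed at 0 in every library.

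Kappa light chain variable segments, chosen by the same minimum of 1 FPKM, showed the same order. The 82 Igkv segments summed to 368 and 331 FPKM in Lf-/- mice, against 1232 and 2358 FPKM in WT mice. Their effective number was 45.1 and 34.8 in Lf-/- mice, against 29.6 and 12.7 in WT mice. WT mouse 2 again had the most dominant segment, Igkv1-117, with 22.2% of Igkv FPKM, and it was also the leading Igkv segment of both Lf-/- mice, with 5.39% and 9.08%. Summed Ighv was 0.552 and 0.512 times summed Igkv in Lf-/- mice, against 0.465 and 0.892 times in WT mice.

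B cell markers did not follow the Ighv level. The 11 markers summed to 95.6 and 40.9 FPKM in Lf-/- mice, against 63.9 and 88.0 FPKM in WT mice. All 11 had a log2 difference below 0, against 51.7% of all genes tested, yet none passed. None had both Lf-/- libraries below both WT libraries, against 17.8% of all genes. Cd79a, a signalling chain of the B cell receptor that was chosen as the scale for B cells, had 23.8 and 10.0 FPKM in Lf-/- mice, against 14.03 and 20.1 FPKM in WT mice. Summed Ighv was 8.55 and 16.9 times Cd79a in Lf-/- mice, against 40.9 and 105 times in WT mice. The 9 plasma cell markers summed to 175 and 202 FPKM in Lf-/- mice, against 243 and 329 FPKM in WT mice. Of 8 tested, 3 lay below both WT mice, against 17.8% of all genes, and 1, Prdm1, lay above them, against 18.1%. Among the 3, Jchain, which joins IgA and IgM polymers, had 10.6 and 20.2 FPKM in Lf-/- mice, against 53.5 and 155 FPKM in WT mice. Mzb1, a chaperone of antibody-secreting cells, had 4.24 and 4.90 FPKM in Lf-/- mice, against 7.72 and 9.37 FPKM in WT mice. The plasma cell receptor gene Tnfrsf17, under the minimum for testing and chosen with its values in view, also lay above both WT mice, with 0.473 and 0.372 FPKM in Lf-/- mice, against 0.0658 and 0.172 FPKM in WT mice. The order of the plasma cell marker sums rested on Jchain. Sdc1 and Xbp1, large parts of these sums and chosen with their values in view, overlapped. Sdc1 had 81.2 and 86.3 FPKM in Lf-/- mice, against 87.8 and 73.2 FPKM in WT mice. Xbp1 had 67.0 and 82.9 FPKM in Lf-/- mice, against 83.2 and 79.7 FPKM in WT mice. Lymphoid tissue can enter a lung sample, and 4 markers of follicles and lymph node stroma were listed. They summed to 89.8 and 19.8 FPKM in Lf-/- mice, against 108 and 115 FPKM in WT mice, most of it Ccl21a, a chemokine of lymphoid stroma. Of 3 tested, 2 lay below both WT mice, against 17.8% of all genes, namely Ccl21a and Cxcl13, the chemokine of follicles. Ccl19 overlapped, and Madcam1 was listed at 0 in 3 libraries. The 6 T cell markers summed to 30.3 and 17.7 FPKM in Lf-/- mice, against 28.5 and 34.1 FPKM in WT mice. Of the 6, 2 lay below both WT mice, against 17.8% of all genes. The part of such tissue in the Ighv level was not tested.

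Genes of heavy chain assembly and secretion were counted from a list of 66, of which 53 could be tested. No gene passed the adjusted threshold, 39 had a difference below 0 and 14 above it. Both Lf-/- libraries lay below both WT libraries for 22 (41.5%), against 17.8% of all genes tested, and above them for 5 (9.43%), against 18.1%. Their median log2 difference was -0.18, against -0.01 over all genes tested. Of the 4 light chain constant genes, 3 lay below both WT mice. Igkc, the kappa constant region, had 254 and 327 FPKM in Lf-/- mice, against 704 and 1470.2 FPKM in WT mice.

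Genes that assemble the heavy chain gene in precursor B cells were scarce. Rag1 and Rag2, the recombinase subunits, and Igll1, a surrogate light chain, stayed at or under 0.136 FPKM in every library, and 0 was listed for Rag2 and Igll1 in 3 of 4. Dntt, of the same recombination list, stayed at or under 0.451 FPKM. Vpreb1, another surrogate light chain gene, was less scarce and overlapped, with 0.297 and 1.12 FPKM in Lf-/- mice, against 0.590 and 0.257 FPKM in WT mice. Vpreb3, which works with the surrogate light chain and is also present in mature B cells, overlapped with 13.9 and 17.7 FPKM in Lf-/- mice, against 15.7 and 12.4 FPKM in WT mice. Among general DNA repair genes that join the segments, 1 of 8 tested recombination genes, Prkdc, lay below both WT mice and 2 lay above them, against 17.8% and 18.1% of all genes. Nhej1, an end-joining factor, was 1 of these, with 3.19 and 2.79 FPKM in Lf-/- mice, against 2.53 and 2.45 FPKM in WT mice. Of 7 tested genes of hypermutation and class switching, 3 lay below both WT mice, against 17.8% of all genes. Msh6, a mismatch repair protein, had 5.75 and 5.09 FPKM in Lf-/- mice, against 6.37 and 6.33 FPKM in WT mice.

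Transcription factors of the heavy chain locus were counted next. Of 11 tested, 2 lay below both WT mice, against 17.8% of all genes, and 2 above, against 18.1%, so both counts were near the share among all genes. Pou2af1, the coactivator that works with octamer factors at heavy chain promoters, had 6.16 and 3.70 FPKM in Lf-/- mice, against 6.996 and 8.65 FPKM in WT mice. Tcf3, which codes for E2A, had 14.9 and 14.6 FPKM in Lf-/- mice, against 12.6 and 12.4 FPKM in WT mice. Both differences were small, at -0.60 (SE 0.24) and 0.22 (SE 0.10) on the log2 scale, with an adjusted p of 0.893 by limma for each.

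Of 14 tested receptor partners and secretion genes, 8 lay below both WT mice, against 17.8% of all genes, and 1, Prdm1, lay above, against 18.1%. Prdm1, the transcription factor of plasma cell differentiation, was chosen with its values in view and had 4.01 and 2.85 FPKM in Lf-/- mice, against 2.78 and 2.64 FPKM in WT mice. Jchain and Mzb1, given above, had the smallest p of them, with log2 differences of -2.56 (SE 0.59) and -0.77 (SE 0.15). Derl3, which works in the disposal of misfolded proteins in secretory cells, had 0.737 and 1.36 FPKM in Lf-/- mice, against 2.43 and 2.23 FPKM in WT mice. The adjusted p of these 3 genes by limma ran from 0.872 to 0.893.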

How the data were processed

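The authors deposited FPKM values, 1 file per library with 21545 entries by gene symbol. Per the submitters' processing notes, TopHat, Cufflinks, HTSeq, DESeq and the build GRCm38 were used, with no version or role given. Annotation, strand setting, scaling between libraries and treatment of reads with several matches: not given in the sources used here. Repeated symbols were summed to 21499 genes; no Ighv symbol was repeated. FPKM gives no counts, so depth is unknown and no counting intervals are given. Lowest values above 0 among the members were 0.174 and 0.162 FPKM in Lf-/- libraries and 0.359 and 0.324 FPKM in WT libraries. An exact 0 is a listed value and can be a failed estimate.

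The 12994 genes that reached 1 FPKM in some library were fitted as log2(FPKM + 1) with limma 3.58.1 in R 4.3.3 (lmFit, eBayes with a mean-variance trend, genotype as the sole term), with Benjamini-Hochberg adjustment over all of them at 0.05. The fit had 2 residual and 2.6 prior degrees of freedom. The step was also run on simulated data with independent normal noise and added differences. That setting holds no genes that are high in a single library, so it does not cover such segments. The same mouse number in both genotypes names different animals, so numbers were not treated as pairs. Positions came from GENCODE vM21, in which all 81 members had a unique position; V exons came from its transcripts. Near-identical copies were sought among them with BLAST 2.17.0 (at least 95% identity over at least 50% of the length). Tables were made with pandas 2.3.3 and figures with matplotlib 3.10.9, in Python 3.11.15.

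Members, gene lists and tests were chosen with earlier results of these data known. Segments named with values are the leading segment of each library, the 12 of highest mean, up to 8 of smallest p per direction and those at the minimum; others are said to be chosen with their values in view. Pathway genes named are up to 3 of smallest p per role, beside those said to be chosen with their values in view; genes given only as listed near 0 were named as background.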

Additional observations from a re-analysis of the deposited data

How the results depend on the processing

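No Ighv segment passed under any alternative run: pseudocounts of 0.1 and 0.5, a minimum of 1 FPKM in 2 libraries, no filter, scaling by median ratios or quantiles, a constant prior variance, the mouse number as a replicate block (0 segments) and leaving out each library. For all genes, 2 passed. The count was 3 with a pseudocount of 0.5 and 3 with a minimum of 1 FPKM in 2 libraries. It was 1 with no filter and 0 with the replicate block. Same-numbered mice deviated in opposite directions (correlation -0.316); a crossed replicate block, chosen after seeing the data, called 4 genes and 0 segments. Leaving out a library moved the segments lower in both Lf-/- libraries (39) to between 45 and 68, with 68 without WT mouse 1, and those higher (0) to between 1 and 9, since fewer libraries must be in order. It moved the summed ratio (0.139) to between 0.0885 and 0.325, the difference in effective number (20.2, Lf-/- minus WT) to between 14.8 and 25.6, that of the leading share (-10.7 percentage points) to between -17.7 and -3.71, and that of the Ighv1 share (-5.48 points) to between -11.6 and 0.606. Without near-identical copies, 13 segments (of 31) were lower, the effective number differed by 8.44 and the leading share by -25.4; with such copies summed, chosen after seeing the data, the effective number differed by 7.94. At FPKM of at least 5 it differed by 13.6. Without Ighv1-54 and Ighv1-18, also chosen after seeing the data, the effective number differed by 11.9, the leading share by -2.25 and the Ighv1 share by 1.44; the cause was not tested. Median ratio scaling, run for the counts and the summed ratio, length weighting, run for the effective number and both shares, and the use of all 115 listed segments, run for all of these, kept their directions. Among named segments, leaving out a library turned Ighv1-31 (-0.20 to 1.18), Ighv1-36 (-0.49 to 0.62), Ighv1-43 (-0.24 to 1.03), Ighv1-85 (-0.92 to 1.13), Ighv2-3 (-0.63 to 1.69) and Ighv5-9-1 (-0.14 to 0.91), and Ighv1-36 was -0.000168 with a pseudocount of 0.1. Low segments rest on values near the lowest above 0, and their differences are the least certain.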

Other observations

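Segments under the minimum were also examined. Of 34 such Ighv segments, 21 were listed at 0 in all 4 libraries. Ighv5-2, a segment near the joining segments that is favoured early in mouse B cell development, was chosen with its values in view and had 0.343 and 0.274 FPKM in Lf-/- mice, against 0 and 0.323 FPKM in WT mice, so it did not separate the genotypes. Ighv5-15 was listed at 0 in both Lf-/- mice, against 0.343 and 0.858 FPKM in WT mice. Ighv1-72, the segment of the nitrophenyl response of C57BL/6 mice, was chosen with its values in view and had 1.88 and 4.18 FPKM in Lf-/- mice, against 3.13 and 18.2 FPKM in WT mice.

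Across the 81 segments, the ranks of Lf-/- mice 1 and 2 correlated with Spearman's rho of 0.60, and those of WT mice 1 and 2 with 0.40. Across genotypes rho lay between 0.44 and 0.60. These are descriptions across segments, which share the libraries, and segments are not independent replicates. Of the 10 highest segments, Lf-/- mice 1 and 2 shared 5 and WT mice 1 and 2 shared 2, Ighv1-26 and Ighv9-3. The lambda constant region Iglc1 had 5.14 and 16.6 FPKM in Lf-/- mice, against 42.0 and 240 FPKM in WT mice. Iglc2 had 11.1 and 5.79 FPKM in Lf-/- mice, against 17.2 and 20.4 FPKM in WT mice. Iglc3, chosen with its values in view, overlapped with 24.4 and 11.1 FPKM in Lf-/- mice, against 24.0 and 23.3 FPKM in WT mice.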
